A study of Drosophila melanogaster with 4 samples.

Results

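The 10 genes described here are the sirtuins Sirt1, Sirt2, Sirt4, Sirt6 and Sirt7, the histone deacetylases HDAC1, HDAC3, HDAC4 and HDAC6, and the co-repressor gene Smr. They were chosen by name, as deacetylases linked to nutrition and aging together with Smr, and each was found by its FlyBase symbol among the 17628 gene identifiers of the count table. Of the 10, 9 had reads, and these 9 were among the 12529 genes that passed the filter on low counts. The libraries came from poly-A RNA of whole Oregon flies, 5 days old, that carried no allele or agent named in the labels and differed in the sugar of their food. Each sugar, glucose or galactose, was represented by 2 libraries, and values on a diet are given below in the order replicate 1, replicate 2. The labels state neither the sex of the flies, nor the amount of sugar, nor the number of flies in a library, and they do not say that both libraries of a sugar were made from separate cultures, so a p-value here measures the spread between libraries, which may be technical.

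Acetyl groups on lysines of histones open chromatin to transcription, and deacetylases remove them. Sirtuins consume NAD in this reaction, which ties them to the redox state and fuel use of the cell, and Sirt1 has been studied in flies for its link to lifespan on restricted diets. The zinc-dependent enzymes work without NAD, mostly inside large complexes. HDAC1 (also called Rpd3) is the catalytic subunit of the Sin3, NuRD and CoREST complexes, HDAC3 is recruited by Smr, the fly counterpart of the mammalian co-repressors SMRT and NCoR, HDAC4 shuttles between cytoplasm and nucleus under the control of salt-inducible kinases, and HDAC6 acts largely on tubulin and other cytoplasmic proteins.

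Total counts ranged from 21147212 to 25497099 per library. Markers of ovary, testis, accessory gland, muscle, eye, nerve and fat body were detected in every library, although not every gene of a list was. Mst84Da of the testis list was listed at 0 throughout, and the fat body genes Lsp2, Fbp1 and Fbp2 had few or no reads, with Lsp2 at 0 in glucose replicate 2 and Fbp1 at 0 in galactose replicate 1. Summed over its 7 measured genes, the female germline list was at 1094 and 1561 CPM on glucose and at 1430 and 2270 CPM on galactose. CPM is the count scaled to a common library total with TMM normalization. The highest genes of this list in every library were osk and exu. The level of osk was 138.1 and 629.6 CPM on glucose and 316.3 and 836.2 CPM on galactose, and 78.5% of its exonic bases are shared on the same strand. That of exu was 588.7 and 397.1 CPM on glucose and 523.9 and 569.4 CPM on galactose. The 8 testis genes summed to 1259 and 538.9 CPM on glucose and 621.2 and 606.5 CPM on galactose. The 6 muscle genes summed to 5264 and 8052 CPM on glucose and 4673 and 3753 CPM on galactose. The accessory gland list ranged from 345.5 to 755.6 CPM on glucose and from 397 to 578 CPM on galactose, and the neuron list from 126 to 221 CPM and from 183 to 280 CPM. The eye list ranged from 5259 to 5542 CPM on glucose and from 2761 to 3784 CPM on galactose, and the fat body list from 19210 to 22450 CPM and from 15650 to 17160 CPM. Most of the fat body sum came from the yolk protein genes Yp1, Yp2 and Yp3. The fat body gene apolpp overlapped between the diets, at 645.0 and 389.2 CPM on glucose and 603.1 and 475.0 CPM on galactose. The testis and accessory gland sums were both highest in glucose replicate 1, where the female germline sum was lowest. The share of males and females in a library is not stated. In whole flies, another share of the sexes, fewer cells of a type and less RNA per cell cannot be told apart. The part of these tissue differences in the results below was not tested.

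Across the 12529 genes tested, edgeR's quasi-likelihood test with Benjamini-Hochberg adjustment called 0 genes between the diets at an adjusted p of 0.05, or 0.0%, and so 0 of the 9 tested members. Before adjustment, p was under 0.05 for 1033 genes, or 8.24%, and Smr was the one member among them. DESeq2 called 88 genes, 0.685% of those it gave an adjusted p, and limma-voom called 0, with no member among the calls of either. Both galactose libraries lay above both glucose libraries for 3 of the 9 members, Smr, HDAC1 and Sirt6, where 18.8% of all tested genes did so. The reverse held for 0 of the 9 members and for 23.4% of all tested genes. The members' median log2 fold change, galactose over glucose, was 0.39, against -0.04 over all genes tested.

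**Figure D1:**
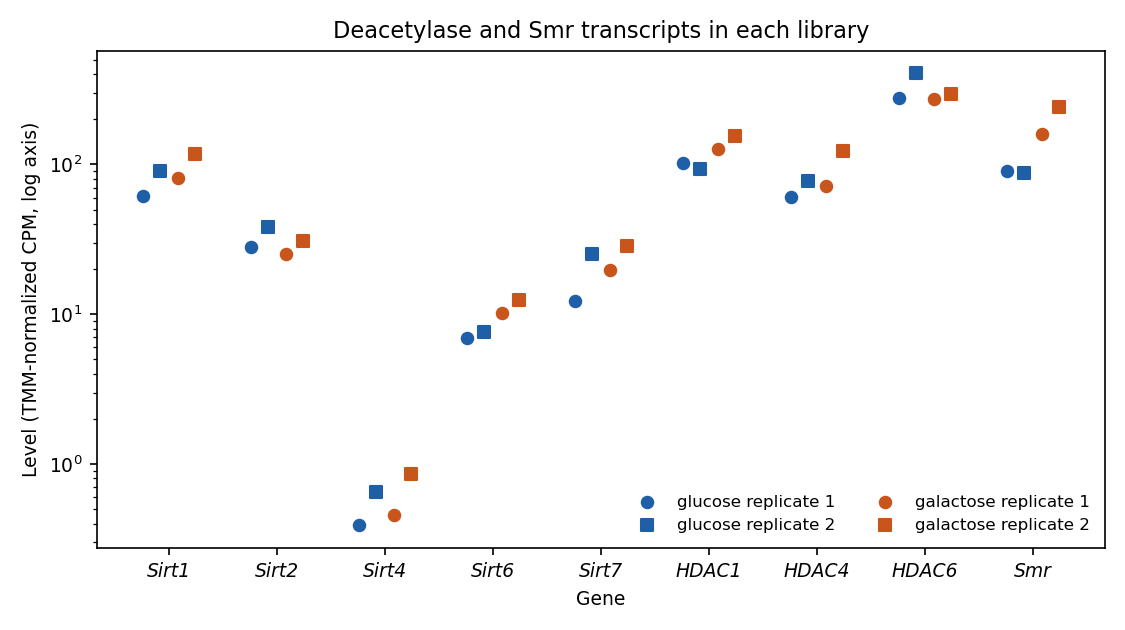
Level of each of the 9 members with reads (TMM-normalized CPM, log axis) in every library, with glucose in blue and galactose in orange, circles for replicate 1 and squares for replicate 2. Smr, HDAC1 and Sirt6 are the 3 genes whose orange points both lie above both blue points; galactose replicate 2 is the highest library for 7 of the 9.

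Smr had the largest difference among the members. The gene (FBgn0265523, BDGP6, X, 12684203 to 12742618, minus strand) has 4 annotated transcripts and 15579 exonic bases, and its protein bridges nuclear receptors and other DNA-bound factors to deacetylases. It received 2335 and 1906 reads on glucose and 3875 and 5387 reads on galactose. Scaled, these were 91.0 and 88.3 CPM on glucose and 161 and 242 CPM on galactose. The glucose libraries lay close together, the galactose libraries were apart from each other, and the diets did not overlap. The mean was 89.6 ± 1.92 CPM (SD, n = 2) on glucose and 201.5 ± 57.4 CPM on galactose, a 2.25-fold higher level, or 1.17 ± 0.29 (SE) as a log2 fold change, with a 95% interval from 0.49 to 1.85. edgeR's quasi-likelihood test gave it an unadjusted p of 0.00482, place 100 of the 12529 genes, and an adjusted p of 0.581. DESeq2 gave an adjusted p of 0.0702. In the authors' deposited table, turned to galactose over glucose, its log2 fold change was 0.97 with an adjusted p of 0.0669, and it was not among the 87 genes marked there as significant.

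The log2 fold change of Smr kept its sign in each of the 15 alternative analyses, between 0.85 and 1.51. With a glucose library left out, edgeR gave 1.19 (replicate 1 out, adjusted p = 0.0645) and 1.15 (replicate 2 out, adjusted p = 0.08). With a galactose library left out it gave 1.37 (replicate 1 out, adjusted p = 0.72) and 0.85 (replicate 2 out, adjusted p = 1.0). Each of these fits takes its spread from the diet with both libraries and assumes that the lone library of the other varies alike. Ratios of reads within a library need no scaling between libraries. The ratio of Smr reads to HDAC1 reads was 0.896 and 0.947 on glucose and 1.26 and 1.56 on galactose. To HDAC6 reads it was 0.330 and 0.218 on glucose and 0.592 and 0.825 on galactose. For each of the 8 other members with reads, the ratio of Smr to that member was higher in each galactose library than in either glucose library, which also held for 86.6% of the 12514 other tested genes with reads in every library, so the count shows nothing particular to the members.

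The 5 genes with the pattern most like Smr, by the root-mean-square distance of log2 CPM centred on the mean of the 4 libraries, were Mitf, Mov10, wisp, CG44838 and Delta. They were taken from 6444 named genes with a mean of at least 20 CPM. Their distances were 0.045, 0.054, 0.060, 0.061 and 0.064 in that order, where the median distance of all compared genes was 0.588. Mitf, a transcription factor of lysosome genes, was at 67.3 and 61.5 CPM on glucose and at 110.0 and 167 CPM on galactose. CG44838 was at 60.1 and 63.8 CPM on glucose and at 103.9 and 165.0 CPM on galactose. In all 5 the galactose libraries lay above the glucose libraries with galactose replicate 2 highest, which the choice by likeness to Smr fixes.

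HDAC3, the deacetylase that Smr recruits, could not be read from this table. The gene (FBgn0025825, 3R, 5472810 to 5474600, minus strand) was listed at 0 reads in each of the 4 libraries. All 1660 of its exonic bases are shared, on the same strand, with CG45100 (FBgn0266539), whose annotated exons are also 1660 bases long, and CG45100 was listed at 0 reads in each library as well. Both annotations cover the same exons, so a read from either fits both. The counts therefore give no level for HDAC3, and 0 here is no measure of its expression. The other 3 zinc-dependent members share no exonic base with another gene on their own strand.

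HDAC1, the class I enzyme shared by the Sin3, NuRD and CoREST complexes, was higher in each galactose library than in either glucose library. It lies on 3L (FBgn0015805, 4626734 to 4629467, plus strand) with 2124 exonic bases. Its level was 101.5 and 93.2 CPM on glucose and 127.3 and 155 CPM on galactose. The glucose libraries lay close together, and galactose replicate 2 was the highest. On the log2 scale the difference was 0.54 ± 0.25 (SE), 1.45-fold, with a 95% interval from -0.06 to 1.13 and an edgeR adjusted p of 0.615. It stayed positive in all 15 alternative analyses, between 0.39 and 0.75.

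HDAC4, a class IIa enzyme that in fly fat body responds to feeding hormones through salt-inducible kinase, has 8 annotated transcripts and 7219 exonic bases (FBgn0041210, X, 13262687 to 13285632, minus strand). It was at 60.3 and 77.2 CPM on glucose and at 72.3 and 123 CPM on galactose. Galactose replicate 1 lay between the glucose libraries, and galactose replicate 2 was the highest. The log2 fold change of 0.51 ± 0.33 (SE, edgeR adjusted p = 0.671) was 0.08 without galactose replicate 2 and 0.78 without galactose replicate 1.

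HDAC6, the tubulin deacetylase, had the most reads of the 10 genes, from 6531 to 8765 per library (FBgn0026428, X, 15333310 to 15340360, plus strand). It was at 276.0 and 406 CPM on glucose and at 272 and 293 CPM on galactose. Glucose replicate 2 stood above the other 3 libraries, which lay close together. Its log2 fold change was -0.27 ± 0.27 (SE, edgeR adjusted p = 0.769) with a 95% interval from -0.92 to 0.38, and it was 0.04 without glucose replicate 2. Of its 5251 exonic bases, 21.1% are shared with the antisense RNA gene CR44998 on the opposite strand, which received from 3 to 7 reads per library; without a stated strand setting the reads of the pair cannot be told apart. Within a library the ratio of HDAC1 reads to HDAC6 reads was 0.368 and 0.230 on glucose and 0.468 and 0.528 on galactose, so the diets did not overlap in this ratio.

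**Figure D2:**
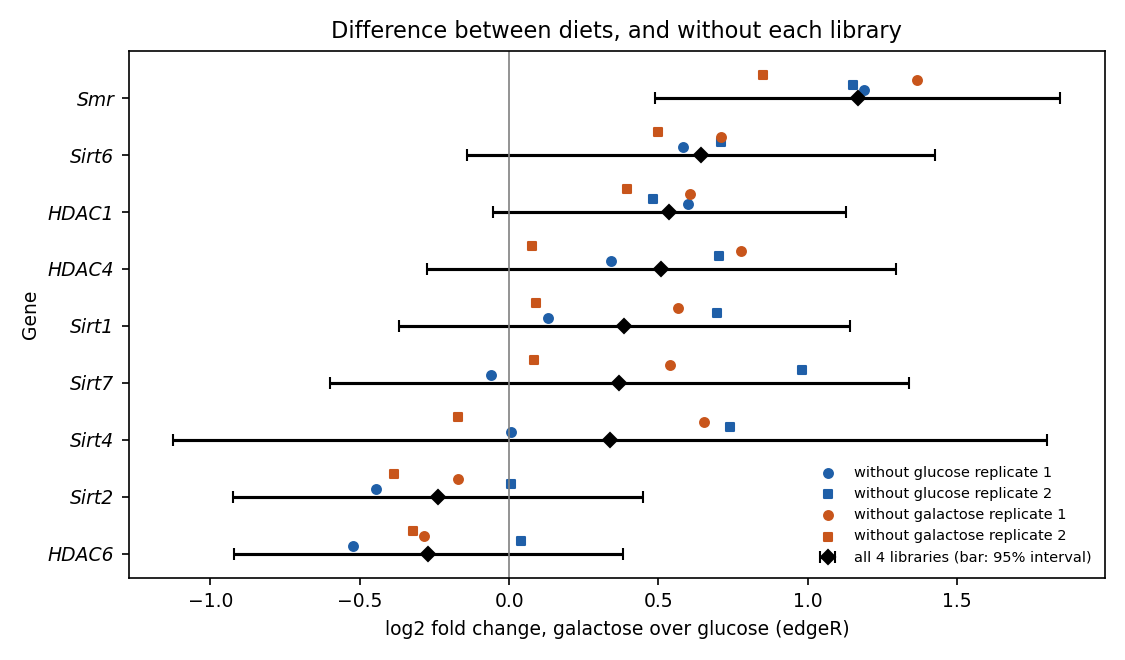
Fitted log2 fold change, galactose over glucose (edgeR), of each tested member with its 95% interval (black), and the value after leaving out each library in turn, coloured by the diet of the library left out. The interval of Smr, from 0.49 to 1.85, is the one that lies wholly above 0 before adjustment; Sirt2, Sirt4, Sirt7 and HDAC6 change sign when 1 library is left out.

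Among the sirtuins, Sirt6, a chromatin-bound enzyme known in mammals for its part in DNA repair and sugar metabolism, was the one whose diets did not overlap. It was at 6.98 and 7.60 CPM on glucose and at 10.3 and 12.5 CPM on galactose, from 164 to 278 reads per library. Both galactose libraries lay above both glucose libraries, and the pair on glucose lay close together. The difference was 0.64 ± 0.33 (SE) on the log2 scale, 1.56-fold, with a 95% interval from -0.14 to 1.43 and an edgeR adjusted p of 0.626. The value was between 0.50 and 0.85 in the 15 alternative analyses. Sirt6 (FBgn0037802, 3R, 10255349 to 10261849, minus strand) has 1114 exonic bases, the shortest of the members.

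Sirt1, the fly Sir2 gene (FBgn0024291, 2L, 13165564 to 13169551, plus strand), was at 61.6 and 90.9 CPM on glucose and at 80.9 and 118 CPM on galactose. The diets overlapped, since glucose replicate 2 lay above galactose replicate 1. Its log2 fold change was 0.39 ± 0.32 (SE, edgeR adjusted p = 0.733) with a 95% interval from -0.37 to 1.14, which leaves room for a 2-fold higher level as well as for a lower one. It was 0.09 with galactose replicate 2 left out and 0.70 with glucose replicate 2 left out. Of its 3809 exonic bases, 13.4% overlap DnaJ-H on the opposite strand, a chaperone gene at 101.2 to 125.5 CPM.

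Sirt2, the sirtuin that in mammals deacetylates tubulin in the cytoplasm (FBgn0038788, 3R, 20328465 to 20330915, plus strand), was at 27.9 and 38.1 CPM on glucose and at 25.2 and 30.8 CPM on galactose. Glucose replicate 2 was the highest library and galactose replicate 1 the lowest, with overlap between the diets. As a log2 fold change the difference was -0.24 ± 0.29 (SE, edgeR adjusted p = 0.806) and 0.01 without glucose replicate 2. The ratio of Sirt1 to Sirt2 reads within a library was 2.21 and 2.38 on glucose and 3.21 and 3.84 on galactose. The ratio of Sirt6 to Sirt2 reads was 0.250 and 0.199 on glucose and 0.407 and 0.406 on galactose. In these ratios, too, both galactose libraries lay above both glucose libraries, while neither Sirt1 nor Sirt2 separated the diets by its own level. The pairs of genes for all ratios given here were chosen after their values were seen. HDAC1 over HDAC6, Sirt1 over Sirt2 and Sirt6 over Sirt2 each set a positive log2 fold change over a negative one. By that choice the ratio moves up on galactose, and the share of all gene pairs that separate the diets was not counted.

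Sirt7, a nucleolar enzyme in mammals (FBgn0039631, 3R, 29055927 to 29059204, plus strand), was at 12.3 and 25.1 CPM on glucose and at 19.8 and 28.5 CPM on galactose. Glucose replicate 1 was the lowest library, and the glucose libraries were farther apart than the means of the diets. The log2 fold change of 0.37 ± 0.41 (SE, edgeR adjusted p = 0.788) was 0.98 with glucose replicate 2 left out and -0.06 with glucose replicate 1 left out.

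Sirt4, the mitochondrial sirtuin (FBgn0029783, X, 5664628 to 5665940, minus strand), was barely detected, with 10 and 14 reads on glucose and 11 and 19 reads on galactose. These were 0.390 and 0.648 CPM on glucose and 0.457 and 0.854 CPM on galactose, with overlap between the diets. The log2 fold change of 0.34 ± 0.62 (SE, edgeR adjusted p = 0.867) had a 95% interval from -1.12 to 1.80. At this depth the interval leaves room for more than a 2-fold difference in either direction. Of its 1253 exonic bases 78.1% lie opposite the antisense RNA gene CR45520, which had 0 to 2 reads per library, so the reads are uncertain.

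Levels can be compared between genes only per length, as RPKM, here CPM per kilobase of annotated exonic bases. HDAC6 was at 59.4 ± 12.1 RPKM (SD, n = 4 libraries over both diets) and HDAC1 at 56.2 ± 13.2 RPKM, with overlapping libraries. Their order differed by diet. On glucose both HDAC6 libraries (52.6 and 77.3 RPKM) lay above both HDAC1 libraries (47.8 and 43.9). On galactose both HDAC1 libraries (59.95 and 73.0) lay above both HDAC6 libraries (51.8 and 55.9). Of the exonic bases, 21.1% in HDAC6 and 8.0% in HDAC1 lie opposite another gene. How reads on such bases were counted is not stated, so the order of HDAC6 and HDAC1 may depend on it. Both genes lay above Sirt1 in every library, which was at 23.1 ± 6.19 RPKM with a highest library of 31.1, where the lowest HDAC1 library was at 43.9 RPKM. Then followed Sirt2 at 13.4 ± 2.43, HDAC4 at 11.5 ± 3.83, Smr at 9.34 ± 4.66, Sirt6 at 8.37 ± 2.28 and Sirt7 at 7.0 ± 2.31 RPKM, and each neighbour in this order overlapped the next. Sirt4 came last at 0.469 ± 0.167 RPKM, and its highest library, at 0.681 RPKM, was below the lowest Sirt7 library at 4.01 RPKM. On glucose Smr, at 5.75 ± 0.12 RPKM (SD, n = 2), had a mean below those of Sirt6 and Sirt7, at 6.54 ± 0.39 and 6.11 ± 2.97 RPKM. On galactose, at 12.9 ± 3.69 RPKM, its mean was above those of Sirt6 and Sirt7, at 10.2 ± 1.42 and 7.89 ± 2.02 RPKM. It was then also above the mean of Sirt2, at 12.3 ± 1.73 RPKM, as was HDAC4 at 13.6 ± 5.01 RPKM, with overlapping libraries. The unused exons of a long gene lower its RPKM, because all annotated exons count toward its length.

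**Figure D3:**
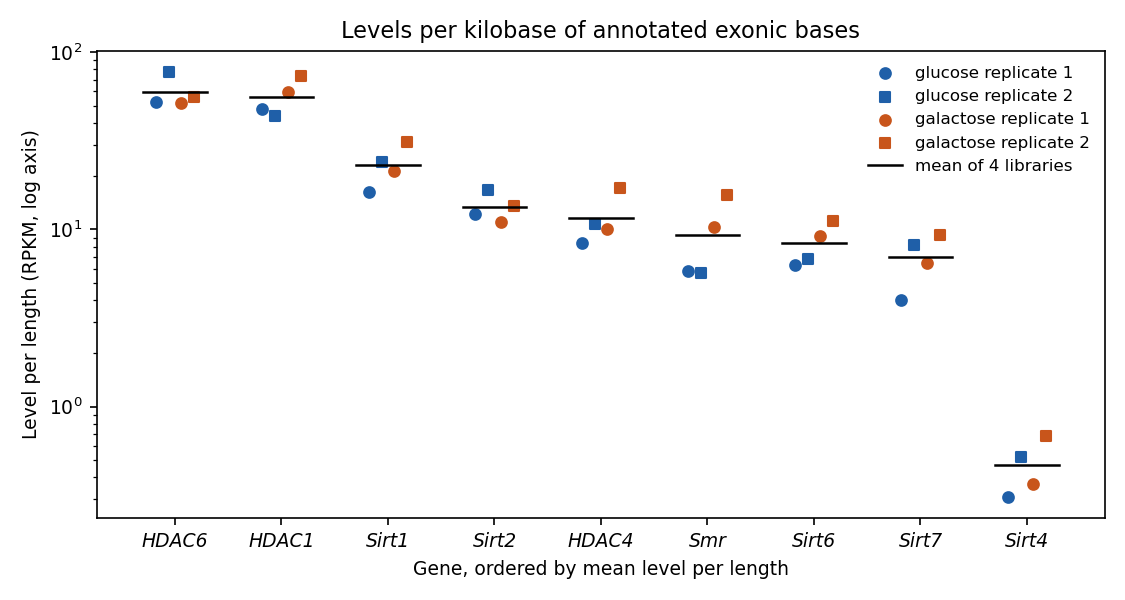
Level per length (RPKM, log axis) of each member with reads in the 4 libraries, ordered by the mean over the libraries (black line), with glucose in blue and galactose in orange. HDAC6 and HDAC1 lie above all other members in every library, and Sirt4, at 0.469 RPKM on average, lies below.

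The spread between libraries had a common shape in these genes. Galactose replicate 2 was the highest library for 7 of the 9 members, Sirt2 and HDAC6 being the exceptions, where it was highest for 29.4% of all tested genes. Glucose replicate 1 was the lowest library for 5 of the 9, Sirt1, Sirt4, Sirt6, Sirt7 and HDAC4, and for 27.0% of all tested genes. The members' median log2 CPM, centred for each gene on its mean, was -0.41 and 0.09 on glucose and -0.08 and 0.47 on galactose. By this median glucose replicate 2 lay above galactose replicate 1, and the diets overlapped. For the female germline list the same median was -0.50 and -0.23 on glucose and 0.03 and 0.71 on galactose. Its lowest library was glucose replicate 1 and its highest galactose replicate 2, as for the members, but in this list the diets did not overlap. The Sin3 list described below was at -0.42 and 0.14 on glucose and -0.07 and 0.41 on galactose, in the members' order. The acetyltransferase list was also in that order, at -0.37 and 0.07 and at -0.10 and 0.33. The testis list had glucose replicate 1 highest, at 0.95, and glucose replicate 2 lowest, at -0.71. The part of these list patterns in the members' values was not tested.

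The members' exonic lengths run from 1114 to 15579 bases, and the median log2 fold change of all tested genes moved with length. The 12277 tested genes with an annotated length, 252 fewer than were tested, were put in 5 bins of nearly equal size, and the median log2 fold change was -0.29, -0.15, -0.08, 0.05 and 0.22 from the shortest to the longest bin. In the longest bin, of 3601 bases and more, both galactose libraries lay above both glucose libraries for 29.8% of 2455 genes, and in the shortest for 9.44% of 2457 genes. The shortest bin's median centred log2 CPM was 0.36 and -0.15 on glucose and 0.01 and -0.18 on galactose. The diets overlapped there, with glucose replicate 1 apart from the other libraries. For the longest bin it was -0.13 and -0.03 on glucose and 0.07 and 0.11 on galactose, without overlap. Smr, HDAC4, Sirt1 and HDAC6 fall in the longest bin. Smr, at 1.17, and HDAC4, at 0.51, lay above the 75th percentile of that bin, 0.50, while HDAC6, at -0.27, lay below its 25th percentile of -0.06. Sirt6 and HDAC1, in the bins with medians of -0.15 and -0.08, were at 0.64 and 0.54, above the 75th percentiles of 0.16 and 0.21. Counted over the members, 6 of 9 lay above the 75th percentile of their own bin, Sirt4 and Sirt7 being the others, and 1 lay below the 25th. By definition 25% of a bin lies on each of these sides. HDAC4 (0.509 against 0.501), Sirt7 (0.369 against 0.346) and Sirt4 (0.339 against 0.157) passed by less than their SE of 0.331, 0.409 and 0.616. HDAC6, on the lower side (-0.27 against -0.061), also passed by less than its SE of 0.274. The part of length in the members' differences was not tested.

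**Figure D4:**
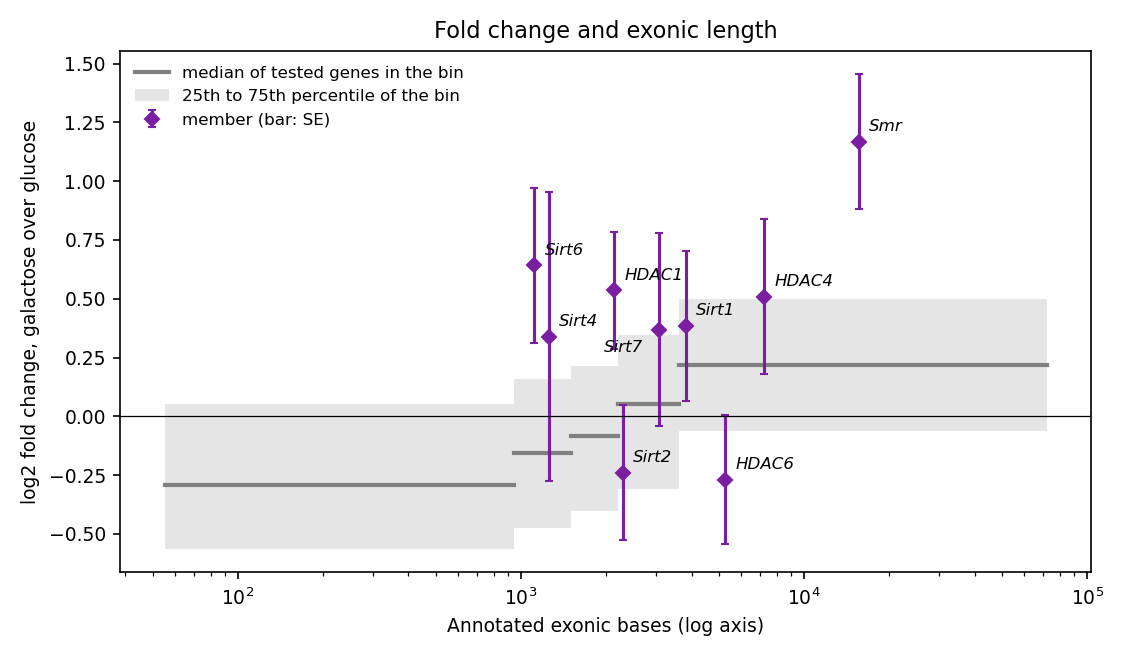
Log2 fold change, galactose over glucose, against annotated exonic bases (log axis) for the 9 tested members (purple, bar: SE), over the median (grey line) and the 25th to 75th percentile (grey band) of the 12277 tested genes with an annotated length, in 5 bins. The bin medians run from -0.29 to 0.22, and 6 members, Smr, HDAC1, HDAC4, Sirt4, Sirt6 and Sirt7, lie above the bands of their bins. HDAC4, Sirt4 and Sirt7 do so by less than their SE.

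Proteins that work with these enzymes were described from lists written from textbook knowledge, by counts and values. No list had a member called by edgeR over all genes tested. Under upper-quartile scaling the medians of the 7 lists were lower, and that of the NAD list turned from 0.03 to -0.08; the other 6 and the members' median, at 0.27, kept their sign under each scaling. Subunits of the Sin3 complex, which carries HDAC1, had 11 of 11 tested genes with a positive log2 fold change, 10 under upper-quartile scaling, and a median of 0.26. Positive values made up 46.9% of all tested genes. Of the 11, 4 had both galactose libraries above both glucose libraries, against 18.8% of all tested genes. Bin1 (SAP18) was at 19.1 and 23.7 CPM on glucose and 28.5 and 34.3 CPM on galactose, and the histone H3K4 demethylase Kdm5 at 113.9 and 172.8 CPM and 173.5 and 284.4 CPM, a log2 fold change of 0.68 and the highest of the list. Sap30 was at 36.8 and 38.8 CPM on glucose and 42.5 and 63.9 CPM on galactose. The scaffold Sin3A itself overlapped between the diets, at 147 and 274 CPM and 227 and 348 CPM, and the lowest value of the list was 0.01, for CG14220 (Sds3).

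The NuRD and CoREST list, the other complexes around HDAC1, had 7 of 7 positive values, a median of 0.60, and 5 genes without overlap, all higher on galactose, a pattern of 18.8% of all tested genes. Of the 7, 6 fall in the longest of the length bins above, where that share was 29.8%. The female germline list, with 1 of 7 genes in that bin, had 4 of 7 higher without overlap and a median of 0.59; its part in these values was not tested. The zinc-finger subunit simj was at 52.0 and 60.3 CPM on glucose and 80.3 and 130.3 CPM on galactose, which is 0.91 ± 0.31 (SE) on the log2 scale (edgeR adjusted p = 0.582). The histone demethylase Su(var)3-3, counterpart of LSD1, was at 31.8 and 36.7 CPM and 46.9 and 63.8 CPM. MTA1-like was at 94.4 and 114.5 CPM and 129.8 and 200.9 CPM. The remodeller Mi-2 had the lowest value, 0.29, with glucose libraries at 182 and 377 CPM and galactose libraries at 263 and 420 CPM, which overlapped. All 7 genes of this list and all 11 of the Sin3 list were highest in galactose replicate 2, as were 29.4% of all tested genes and 6 of the 7 female germline genes.

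Factors that bind Smr or share its role as co-repressors had 11 of 12 positive values and a median of 0.57. Of the 12, 7 were higher in both galactose libraries, against 18.8% of all tested genes, and 1, svp, was lower in both, against 23.4%. The longest length bin holds 8 of the 12. Hairless (H), which holds co-repressors on Notch target genes, was at 51.6 and 55.8 CPM on glucose and 82.1 and 129 CPM on galactose, which is 0.97 ± 0.30 (SE) on the log2 scale (edgeR adjusted p = 0.582). Gug (Atrophin), another co-repressor, was at 101.4 and 111.1 CPM and 154.1 and 227.7 CPM. The ecdysone receptor EcR, the receptor through which Smr was studied in flies, was at 36.2 and 33.2 CPM and 50.3 and 69.7 CPM, while its partner usp overlapped between the diets at 79.4 and 159 CPM and 99.5 and 191 CPM. The lowest value was -0.34, for the orphan receptor svp, at 35.7 and 28.3 CPM and 27.7 and 23.0 CPM. The subunit ebi, the TBL1 counterpart that acts with Smr and HDAC3, also overlapped, at 68.4 and 139 CPM and 102 and 186 CPM.

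**Figure D5:**
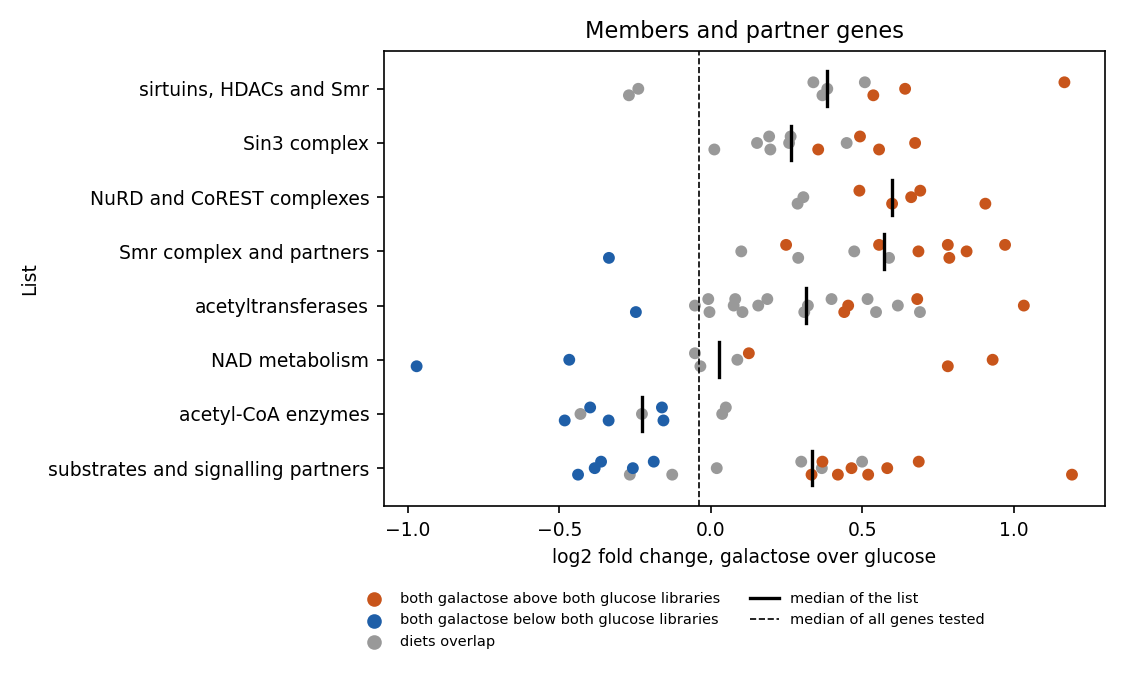
Log2 fold change, galactose over glucose, of each tested gene in the members' list and in 7 partner lists, coloured by whether both galactose libraries lie above (orange) or below (blue) both glucose libraries or overlap them (grey); black bars are list medians and the dashed line is the median of all genes tested, -0.04. List medians run from -0.23 for acetyl-CoA enzymes to 0.60 for NuRD and CoREST.

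The list of acetyltransferases, which add the groups that deacetylases remove, and of other subunits of their complexes had a median of 0.32 over 20 tested genes. Of these, 16 were positive (13 under upper-quartile scaling and 19 under median-of-ratios scaling). Of the 20, 4 were higher in both galactose libraries and 1, msl-2, was lower, so the shares were near or below those of all genes. Nipped-A, a scaffold of acetyltransferase complexes, was at 49.6 and 24.7 CPM on glucose and 85.9 and 66.5 CPM on galactose, a log2 fold change of 1.03 and the highest of the list. The acetyltransferase chm was at 21.9 and 29.8 CPM and 30.6 and 52.3 CPM. The dosage compensation gene msl-1 was at 58.5 and 114.6 CPM and 105.7 and 173.7 CPM, with overlap, and msl-2 had the lowest value, -0.25. HDAC11, the zinc-dependent enzyme outside the members, was at 7.83 and 8.29 CPM on glucose and 8.88 and 5.89 CPM on galactose, with a log2 fold change of -0.13; 22.1% of its exonic bases lie opposite another gene.

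The enzymes that make or use NAD, the co-substrate of the sirtuins, had a median of 0.03 over 8 tested genes, with 4 positive and 4 negative. Of the 8, 3 were higher and 2 lower in both galactose libraries, against 18.8% and 23.4% of all tested genes. NAD synthetase (Nadsyn) was at 42.1 and 49.6 CPM on glucose and 66.0 and 91.8 CPM on galactose. The poly(ADP-ribose) polymerase Parp1, an NAD consumer, was at 60.7 and 19.96 CPM and 82.4 and 71.6 CPM, the highest value of the list at 0.93. Vermilion (v), tryptophan dioxygenase at the head of the kynurenine route, was at 23.2 and 32.6 CPM and 16.6 and 11.9 CPM, the lowest at -0.97. The nicotinamidase Naam, which removes a product that inhibits sirtuins, was at 13.1 and 17.1 CPM and 14.9 and 14.2 CPM, with overlap, and was chosen after its values were seen.

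Enzymes that make or use acetyl-CoA, which carries the acetyl groups, had a median of -0.23 over 9 tested genes. Of these, 5 were lower in both galactose libraries, against 23.4% of all tested genes, and 0 were higher, against 18.8%. The pyruvate dehydrogenase subunit Pdhb was at 434.1 and 453.7 CPM on glucose and 331.6 and 304.2 CPM on galactose, the lowest value of the list at -0.48. Citrate synthase (kdn) was at 687 and 882 CPM and 618 and 573 CPM. Acetyl-CoA synthetase AcCoAS was at 354 and 420 CPM and 327 and 286 CPM, and the highest value was 0.05, for the thiolase Acat2.

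Known substrates and signalling partners had a median of 0.33 over 19 tested genes, 8 higher and 5 lower in both galactose libraries. Over all tested genes these shares were 18.8% and 23.4%, so the count of lower genes was near the background, and 10 of the 19 fall in the longest length bin. Myc had the highest value, 1.19, at 43.9 and 17.8 CPM on glucose and 73.0 and 68.1 CPM on galactose, although 20.3% of its exonic bases are shared with genes on the same strand and 40.9% with genes on the other. Crtc, a cofactor that salt-inducible kinases control, was at 51.2 and 30.6 CPM and 67.6 and 64.2 CPM, and the kinase gene Akt at 96.1 and 70.8 CPM and 115 and 125 CPM. The autophagy receptor ref(2)P, with -0.44, was the lowest at 482.6 and 499.8 CPM and 369.5 and 355.5 CPM. The factor foxo and the kinase gene Sik3, both linked to these deacetylases in flies, were chosen after their values were seen. The level of foxo was 68.7 and 31.1 CPM on glucose and 75.5 and 74.1 CPM on galactose. That of Sik3 was 25.95 and 30.7 CPM on glucose and 37.3 and 40.9 CPM on galactose.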

How the data were processed

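The authors deposited raw read counts per gene for 4 libraries and a table of their own comparison. The submitters' processing notes name build BDGP6 and, with no order or role, HTSeq 0.6.1, TopHat2 2.0.12, Bowtie2 2.2.3 and DESeq2. How strand and shared exons were counted is not stated in the labels. In the authors' deposited table the expression signal is a mean normalized count per diet, the log2 column is glucose over galactose, and the p-value columns are raw and adjusted, per the file headers.

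Counts were tested with edgeR 4.0.16 in R 4.3.3 (glmQLFTest, TMM, filterByExpr with minimum count 10 and total 15, no block), adjusted by Benjamini-Hochberg over all 12529 genes at 0.05. The SE is the log2 fold change divided by the square root of F. DESeq2 1.42.0, limma-voom (limma 3.58.1), other scalings and filters, a replicate block and leaving out each library were alternatives. The test was also run on simulated counts, and what it recovered there is not reported here. Names came from the reference gene table, for 17252 identifiers; lengths and coordinates came from the BDGP6 annotation, whose release may differ from the authors'.

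The members and lists were chosen with earlier results of these data known. All members were named, with the 3 smallest p and the extreme fold changes of each partner list and the 5 genes nearest to Smr; marker lists are given as sums. Sin3A, usp, ebi, apolpp, osk, exu and the yolk protein genes, like the genes marked so in the text, were named after their values were seen. Sequences were not used here.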

Additional observations from a re-analysis of the deposited data

How the results depend on the processing

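Members called stayed at 0 in all 15 alternatives, and the members' median log2 fold change stayed positive, from 0.083 to 0.828, the highest with DESeq2 without glucose replicate 2. Without each library in turn edgeR gave medians from 0.084 to 0.704 and called from 0 to 549 genes, with 549 without glucose replicate 1 and 147 without glucose replicate 2; the lone library left in a diet is assumed to vary like the other pair. DESeq2 called 88 genes with all libraries and, in analyses added after seeing the data, 328 and 17 without glucose replicates 1 and 2 and 48 and 22 without galactose replicates 1 and 2. Smr, HDAC1, HDAC4, Sirt1 and Sirt6 kept their sign throughout. Without each library in turn edgeR's value ranged from -0.447 to 0.008 for Sirt2, from -0.170 to 0.741 for Sirt4, from -0.059 to 0.98 for Sirt7 and from -0.523 to 0.040 for HDAC6. Signs turned, in edgeR and then DESeq2, for Sirt7 without glucose replicate 1 (-0.059 and -0.106), for Sirt2 and HDAC6 without glucose replicate 2 (0.008 and 0.126, and 0.040 and 0.156), and for Sirt4 without galactose replicate 2 (-0.170 and -0.178). Sirt4 also turned with DESeq2 without glucose replicate 1 (-0.036), and it was not tested at a minimum of 1 CPM in 2 libraries. The cause was not tested. Upper-quartile scaling moved the median of all genes by -0.111, and Smr was then at 1.04. With the replicate number as a block 0 genes were called and the members' median was 0.432; same-numbered libraries deviated together with a correlation of 0.225 over 12529 genes, which with 2 pairs does not pair them. Depth limits Sirt4, at 10 to 19 reads.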
